A study of Mus musculus with 4 samples.

Results

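The 9 genes described here encode receptors and bridging proteins with which living cells recognise and take up dying ones: the receptor kinases Mertk, Axl and Tyro3, their ligands Gas6 and Pros1, the bridging protein Mfge8, and the receptors Stab1, Lrp1 and Trem2. They were chosen by name, and all 9 were found among the 29245 gene columns of the count tables through their Ensembl identifiers. The series holds hearts of 2 Mst1/2-deficient mice (KO1 and KO2) and 2 wild-type mice (WT1 and WT2) of the C57BL/6 strain, and polyadenylated RNA was sequenced from single wells of 4 chips. Slow spins had parted cardiomyocytes (CM) from the other cells (NCM), and within a fraction each genotype lay on its own chip, so genotype and chip cannot be told apart. The labels do not state the allele, the cells in which the kinases were deleted, the age or sex of the mice or whether the hearts were injured, and animals were taken from the per-well reports.

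A dying cell shows phosphatidylserine on its outer surface. Trem2 and Stab1 bind such lipids themselves, while Gas6 and Pros1 couple them to the receptor kinases Mertk, Axl and Tyro3, and Mfge8 couples them to alpha-v integrins. Lrp1 is a large endocytic receptor that takes up calreticulin-marked cells. In the heart, resident macrophages are known to use Mertk to clear worn or dying myocardial material.

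Gene bounds are those of GENCODE vM21 on the mm10 build (GRCm38), and all 9 genes are protein coding. On the plus strand are Mertk (chromosome 2, 128698956 to 128802894), Tyro3 (chromosome 2, 119797733 to 119818104), Pros1 (chromosome 16, 62854307 to 62929346) and Trem2 (chromosome 17, 48346401 to 48354147). On the minus strand are Axl (chromosome 7, 25757273 to 25788705), Mfge8 (chromosome 7, 79133768 to 79149060), Gas6 (chromosome 8, 13465374 to 13494490), Stab1 (chromosome 14, 31139013 to 31168641) and Lrp1 (chromosome 10, 127538161 to 127621148). Gas6 overlaps Tmem255b and Stab1 overlaps Nt5dc2 on the opposite strand, and these neighbours held 6104 and 4786 unique molecular identifiers (UMIs, counted once per captured RNA molecule) in kept wells, beside 24519 for Gas6 and 24738 for Stab1. The antisense genes Gm14011 (over Mertk) and Gm16217 (over Lrp1) held 203 and 59. The strand setting of the counting is not given in the sources used here, so reads of these pairs cannot be told apart.

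Of 4275 wells with a cell, 3990 held at least 10000 UMIs and 300 detected genes and were kept, with median depths of 70186 to 144229 UMIs per chip. Levels are in UPM, UMIs per 1000000 UMIs outside mitochondrial and haemoglobin genes, and are not divided by gene length, so they are compared within a gene only. The genes named in the genotype were detected in every animal: Stk4, which encodes MST1, had 45.8 and 37.5 UPM in NCM wells of KO1 and KO2, against 53.1 and 47.3 in those of WT1 and WT2, and Stk3, which encodes MST2, had 29.0 and 26.3, against 23.5 and 38.6. Since the labels do not say which exons or cells were targeted, these counts do not check the genotype, and KO means what the labels say. Mitochondrial genes took 58.1 and 36.5% of NCM UMIs in KO1 and KO2, against 7.45 and 11.2% in WT1 and WT2. Cardiomyocyte-like NCM wells held fibroblast markers (0.69 to 1.25% of UMIs) and macrophage markers (0.52 to 1.03%) at about the level of cardiomyocyte markers (0.43 to 1.02%), so they are mixed and are given little room. Neutrophil-like wells of KO1 and KO2 are mixed too. They held neutrophil markers at 0.744 and 0.701%, fibroblast markers at 0.576 and 0.982% and macrophage markers at 0.525 and 0.638%.

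Trem2, Stab1 and Mertk had their highest median over animals in macrophage-like wells among the 5 NCM classes with at least 20 wells in every animal. The mixed cardiomyocyte-like wells came next for each of them (34.7 to 387, 37.2 to 174 and 16.0 to 63.5 UPM), with ranges that overlapped the macrophage-like ones. Cluster 5, outside these 5 classes with as few as 16 wells in an animal, has the class II genes Cd74 and H2-Ab1 among its leading genes. Its 260 NCM wells had 39.5 to 269 UPM of Trem2 and 17.9 to 49.4 of Mertk. Small classes spread widely: Trem2 had 11.2 to 1172 in 37 T or NK cell-like wells, and Mertk had 0 to 254 in 73 endocardial-like wells. Trem2, a lipid receptor that signals through the adaptor Tyrobp, had 522 and 479.6 UPM in macrophage-like wells of KO1 and KO2, against 529.7 and 341 in those of WT1 and WT2. Every one of these 4 values lay above every value of the endothelial-like and fibroblast-like wells (65.6 to 135.9 and 11.6 to 34.3), while in neutrophil-like wells KO2 alone reached 357 and the other animals had 3.15 to 46.4. Over the 4 animals, 229 of 279 macrophage-like wells held a Trem2 UMI (82.1%), which is 51.5% once every well is thinned to 5000 UMIs, against 9.25% in fibroblast-like and 12.5% in neutrophil-like wells, classes that are not known for Trem2. Macrophage-like wells were the deepest class, with a median of 122058 UMIs outside the mitochondrial and haemoglobin genes, against 93168 in fibroblast-like and 43293 in neutrophil-like wells, so the thinned shares are the ones to set side by side.

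Stab1, a scavenger receptor that binds phosphatidylserine, had 153 and 193 UPM in macrophage-like wells of KO1 and KO2, against 197 and 184 in those of WT1 and WT2. The 4 animals lay close together, above every endothelial-like (38.3 to 56.4), neutrophil-like (7.25 to 143) and fibroblast-like (4.21 to 38.1) value. The highest animals of small classes reached this level: pericyte-like (0 to 211), endocardial-like (10.5 to 172) and lymphatic endothelial-like wells (16.1 to 268). Cluster 5 spread from 18.0 to 198, so its highest animal reached the macrophage-like level. It gave 14.5% of the NCM Stab1 UMIs, beside 7.21% of all NCM UMIs outside mitochondrial and haemoglobin genes. The thinned share of wells with a Stab1 UMI was 33.5% in macrophage-like wells and 6.51% in fibroblast-like wells. In the small lymphatic endothelial-like class, 9 of 13 wells held Stab1, a gene known from lymphatic vessels, and the thinned share was 43.9%.

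Mertk had 59.2 and 101 UPM in macrophage-like wells of KO1 and KO2, against 25.0 and 93.6 in those of WT1 and WT2. Its order over classes was less even: endothelial-like wells had 12.9 to 71.1, neutrophil-like wells 2.52 to 100.3 and fibroblast-like wells 3.31 to 36.6, so the macrophage-like range overlapped each of them. The thinned share of wells with a Mertk UMI was 15.7% in macrophage-like wells, 6.15% in endothelial-like wells, 4.04% in neutrophil-like wells and 3.57% in fibroblast-like wells. Macrophage-like wells gave 57.5% of all NCM Trem2 UMIs, 46.7% of Stab1 UMIs and 43.6% of Mertk UMIs, beside 21.3% of all NCM UMIs counted outside mitochondrial and haemoglobin genes.

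The promoters of these 3 receptors are shown because the genes were highest in the same class, and that of Mfge8 because it was higher in both KO animals in macrophage-like wells of both fractions. Each runs from 250 bases before to 50 after the RefSeq start site (GRCm38.p6, gene strand), and capitals mark GAGGAA or its reverse complement TTCCTC, the core bound by the myeloid factor PU.1.
Trem2, chr17:48346151-48346450, plus strand: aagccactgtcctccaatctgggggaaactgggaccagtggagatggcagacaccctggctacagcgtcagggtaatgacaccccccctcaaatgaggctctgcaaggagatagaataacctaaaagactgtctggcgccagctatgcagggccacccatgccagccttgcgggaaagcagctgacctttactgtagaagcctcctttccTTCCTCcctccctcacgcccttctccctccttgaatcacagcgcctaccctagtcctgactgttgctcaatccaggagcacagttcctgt
Stab1, chr14:31168592-31168891, minus strand: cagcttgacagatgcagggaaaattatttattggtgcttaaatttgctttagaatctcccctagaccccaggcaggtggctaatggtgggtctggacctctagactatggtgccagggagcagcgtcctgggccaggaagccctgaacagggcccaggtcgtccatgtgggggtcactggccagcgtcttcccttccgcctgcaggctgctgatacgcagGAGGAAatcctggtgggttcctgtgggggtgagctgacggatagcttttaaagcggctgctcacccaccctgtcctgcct
Mertk, chr2:128698665-128698964, plus strand: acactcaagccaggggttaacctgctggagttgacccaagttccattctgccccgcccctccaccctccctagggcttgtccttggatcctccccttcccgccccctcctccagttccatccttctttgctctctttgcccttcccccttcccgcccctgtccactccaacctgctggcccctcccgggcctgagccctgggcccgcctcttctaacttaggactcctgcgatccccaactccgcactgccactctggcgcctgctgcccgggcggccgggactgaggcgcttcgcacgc
Mfge8, chr7:79149011-79149310, minus strand: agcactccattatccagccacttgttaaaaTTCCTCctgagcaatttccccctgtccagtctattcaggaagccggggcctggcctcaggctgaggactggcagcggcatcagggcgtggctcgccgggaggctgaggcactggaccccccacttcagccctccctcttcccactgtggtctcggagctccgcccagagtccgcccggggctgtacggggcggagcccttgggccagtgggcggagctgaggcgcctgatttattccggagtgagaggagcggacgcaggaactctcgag

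The match began 40 bases before the start site in Trem2, 30 bases before it in Stab1 and 220 bases before it in Mfge8, and the Mertk window held no such letters. Of the 9 promoters, 4 held the match (the other is Axl), against 28.3% of 32851 RefSeq promoters of the same length. The letters GGAATG or CATTCC, the core of the TEAD factors that act below MST1 and MST2, were in 1 of the 9 windows (Axl), against 14.7% of all. GGGCGG or its reverse complement was in 7 of 9, including Mertk and Mfge8 but neither Trem2 nor Stab1, against 35.7% of all. Both strands were searched, the GAGGAA and GGAATG matches of these windows shared no letters, and a match is a description of the letters only.

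**Figure D1:**
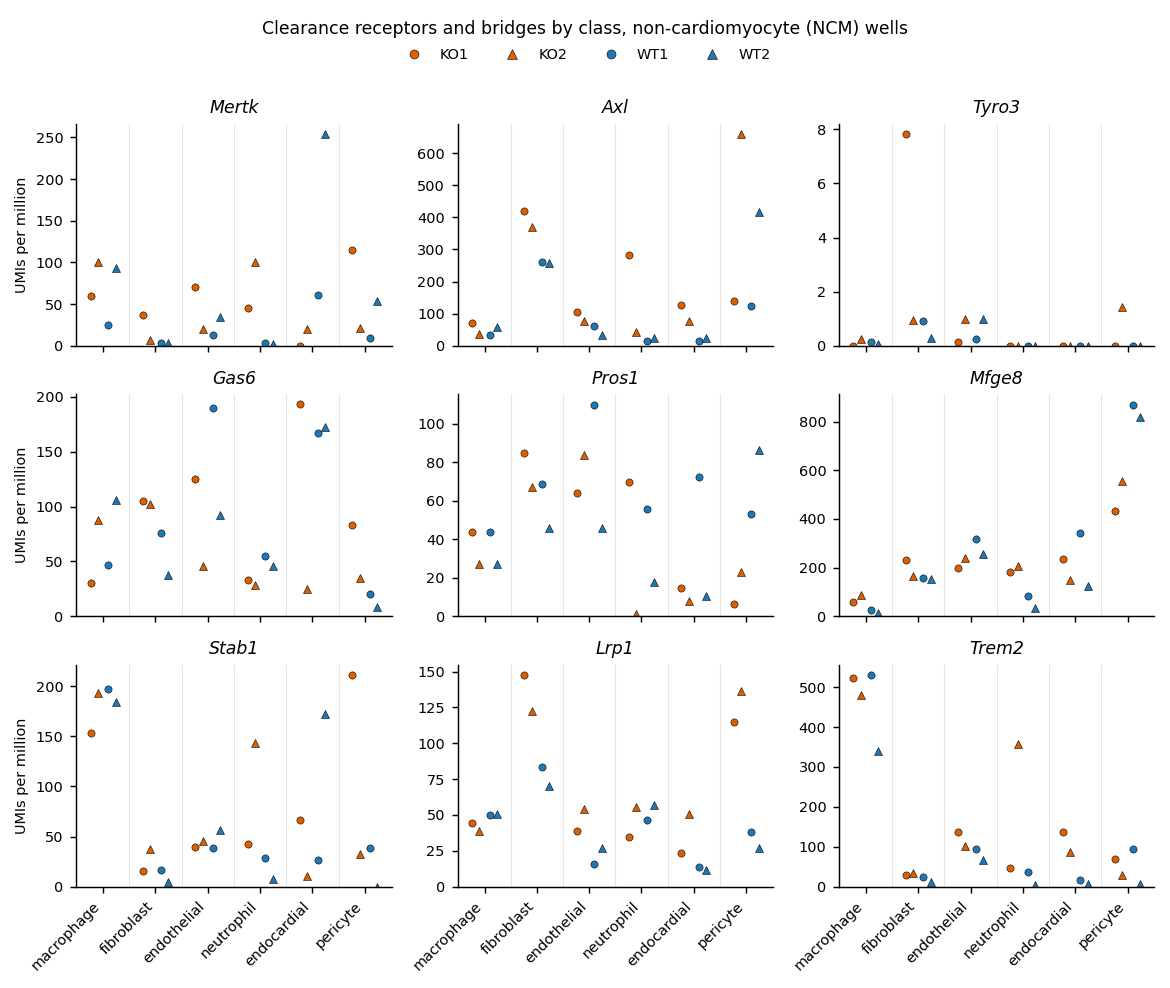
Level of each gene in NCM wells by class, in UPM outside mitochondrial and haemoglobin genes, with 1 point per animal (KO left of WT, circles for animal 1 and triangles for animal 2) and a linear axis of its own in each panel. Trem2 and Stab1 are high in macrophage-like wells of all 4 animals (341 to 529.7 and 153 to 197), Axl in fibroblast-like wells (259 to 419) and Mfge8 in pericyte-like wells (434 to 869).

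The macrophage-like wells were made up of 2 clusters that differed in the bridging protein Gas6. Cluster 12, led by the resident macrophage genes Lyve1, Folr2, Cbr2 and Cd163, had 367 and 272 UPM of Gas6 in KO1 and KO2, against 285 and 180.3 in WT1 and WT2. Cluster 4, led by Ccl4 and Pf4 and with the neutrophil genes Ngp and Slpi among its first 10, had 26.8 and 59.9, against 19.2 and 72.7. In each animal Gas6 was higher in cluster 12, and the lowest animal of cluster 12 lay above the highest of cluster 4. The thinned share of wells with a Gas6 UMI was 54.3% in cluster 12 and 11.9% in cluster 4, while Mertk, the receptor that Gas6 engages, was at 16.4 and 15.5%. Trem2 ran the other way by detection, with 38.3% in cluster 12 and 55.4% in cluster 4, but its levels in cluster 12 spread from 36.7 to 897 UPM and overlapped those of cluster 4 (432 to 527). Cluster 12 held few wells: 2 and 9 in KO1 and KO2, against 18 and 33 in WT1 and WT2, so its KO1 value rests on 10 Gas6 UMIs. Both clusters take their names from genes of the same wells, so this is a description with no test.

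**Figure D2:**
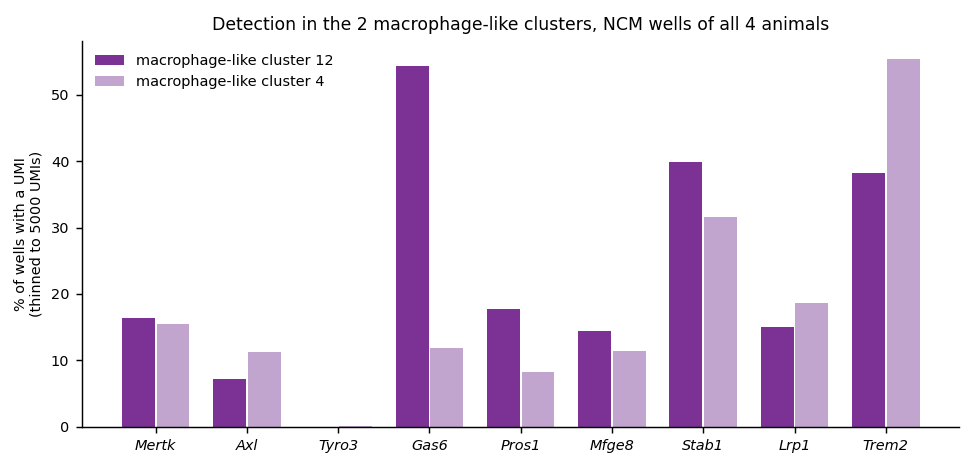
Percent of NCM wells with at least 1 UMI of each gene after thinning every well to 5000 UMIs, in macrophage-like cluster 12 (62 wells) and cluster 4 (217 wells), all 4 animals together. Gas6 stands apart, at 54.3% in cluster 12 and 11.9% in cluster 4, while Mertk is at 16.4 and 15.5%.

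Axl, the receptor kinase of stromal cells and of inflamed myeloid cells, was highest in fibroblast-like and pericyte-like wells. It had 419 and 371 UPM in fibroblast-like NCM wells of KO1 and KO2, against 261 and 259 in those of WT1 and WT2. These values lay above those of the endothelial-like (32.8 to 106) and macrophage-like wells (33.5 to 69.8), with KO1 alone reaching 282 among neutrophil-like wells. The 44 pericyte-like wells spread from 123 to 658 and could not be set apart from fibroblast-like wells. The thinned share of wells with an Axl UMI was 45.7% in fibroblast-like wells and 10.4% in macrophage-like wells, and fibroblast-like wells gave 64.5% of all NCM Axl UMIs, beside 34.6% of all UMIs.

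Lrp1, the endocytic receptor, had its highest median over animals in fibroblast-like wells too, with 148 and 122 UPM in KO1 and KO2, against 83.2 and 70.0 in WT1 and WT2. Macrophage-like wells (38.6 to 50.5), neutrophil-like wells (34.8 to 56.7) and endothelial-like wells (16.1 to 54.3) lay below all 4 of these values and overlapped each other. Cardiomyocyte-like (50.9 to 188), pericyte-like (26.6 to 137) and B cell-like wells (14.7 to 118) overlapped the fibroblast-like range, and the cardiomyocyte-like value of WT1 (188) was above every fibroblast-like value. The thinned share of wells with an Lrp1 UMI was 29.9% in fibroblast-like, 17.8% in macrophage-like and 14.4% in endothelial-like wells. Tyro3, the third receptor kinase and best known from the nervous system, was near the limit of detection: 40 of 2857 NCM wells (1.4%) held a UMI, and 160 of its 343 UMIs came from 1 well of WT1 in cluster 9, whose leading genes are those of red cells. Its levels are given below without a reading of any genotype difference, for which the UMIs are too few.

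The 3 bridging genes were found in vessel wall, stromal and macrophage-like wells. Mfge8, whose product coats dying cells for uptake through integrins, was highest in the 44 pericyte-like wells, at 434 and 555 UPM in KO1 and KO2, against 869 and 819.9 in WT1 and WT2. Next by median came endothelial-like (199.7 to 318), endocardial-like (124 to 341) and fibroblast-like wells (154 to 229), whose ranges overlapped. Macrophage-like wells had 13.1 to 86.4, the lowest median of the 5 classes with at least 20 wells in every animal, and the small lymphocyte-like and lymphatic classes had lower medians. The thinned share of wells with an Mfge8 UMI was 56.9% in pericyte-like, 31.8% in endothelial-like, 28.2% in fibroblast-like and 12.1% in macrophage-like wells, and the neutrophil-like share of 14.2% lay close to the macrophage-like one. Macrophage-like wells gave 4.72% of the Mfge8 UMIs of NCM wells, against 41.4% from fibroblast-like and 21.7% from endothelial-like wells, where these classes held 21.3, 34.6 and 11.9% of all UMIs.

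Gas6 ranged from 45.5 to 189.8 UPM in endothelial-like wells, from 37.5 to 105 in fibroblast-like wells and from 30.1 to 106 in macrophage-like wells, and these ranges overlapped throughout. The mixed cardiomyocyte-like wells had the highest median of the 5 classes, 132 (65.0 to 146), beside 109 in endothelial-like wells. In the 73 endocardial-like wells its thinned share was 24.0%, against 16.9% in endothelial-like wells. Pros1, the plasma anticoagulant protein S that binds Mertk and Tyro3, ranged from 45.9 to 109.8 in endothelial-like, 45.9 to 84.8 in fibroblast-like and 27.1 to 43.8 in macrophage-like wells, with cardiomyocyte-like wells at 28.2 to 75.9. Its macrophage-like values lay below every fibroblast-like and endothelial-like value.

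Across the 20 sums of 5 NCM classes by 4 animals, the genes whose log2(UPM + 10) followed each member most closely, among 6217 candidates, were as follows. Trem2 went with Ccl9 and Ctsb (Pearson r = 0.90 each) and Adgre1 (0.90), and Stab1 with Apobec1 (0.90), Ctsc (0.88) and Ms4a6c (0.88). Axl went with Frzb (0.88), Igfbp4 (0.87) and Aldh1a2 (0.86), Lrp1 with P3h3 (0.84), Adamts2 (0.82) and H6pd (0.77), and Mfge8 with Col4a2 (0.90), Nfib (0.89) and Gm8894 (0.89). Gas6 went with Cnot6l (0.78), Apoo-ps (0.76) and the endothelial gene Vwf (0.75), Pros1 with Pafah1b2 (0.85), Mrpl58 (0.84) and Snw1 (0.83), Mertk with Gm13394 (0.77), Rnpepl1 (0.76) and Hspa1a (0.75), and Tyro3 with Dmwd (0.81), Gucy1a1 (0.75) and Antxr1 (0.72). Between members, Stab1 followed Trem2 (0.90) and Mertk followed Trem2 (0.70) and Stab1 (0.65). The 20 sums share 4 animals and 2 chips and differ in depth, so these values only describe them. Tyro3 was near the limit of detection: its highest sum, fibroblast-like wells of KO1, had 7.81 UPM, mostly from a single well. No sum of another class passed 2.48 UPM, so the r values of Tyro3 are not read further.

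Over all NCM wells, 3 of the 9 genes were higher in both KO animals than in both WT animals, which is the case for 26.9% of the 17216 genes tested, and no member was lower in both. Axl had 198 and 199.8 UPM in KO1 and KO2, against 141 and 129 in WT1 and WT2. Gas6 had 102 and 103, against 70.1 and 73.6, and Mfge8 had 183 and 151, against 129 and 119.8. For each of the 3 the groups did not overlap, and the distance between the animals of a genotype was small beside that between the genotypes for Axl and Gas6. The other 6 overlapped.

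No member passed edgeR's quasi-likelihood test with Benjamini-Hochberg adjustment in NCM wells, and neither did any other gene (0% of genes, with 12.1% under 0.05 before adjustment and 579 genes past the threshold in DESeq2, no member among them). On the TMM scale, the log2 differences were 0.40 ± 0.22 (SE) for Axl, 0.35 ± 0.24 for Gas6 and 0.26 ± 0.22 for Mfge8, with edgeR adjusted p = 0.496, 0.586 and 0.659. The median of all genes was -0.01 on this scale and 0.16 with library totals, which is how the per-million levels are scaled, so ratios of UPM lie higher than the fitted differences by about that much. With every well given equal weight, the log2 difference of Gas6 was -0.02. With 2 animals per genotype an exact permutation test cannot give a p below 0.333. A sum over wells cannot tell fewer cells of a type from less RNA per cell, and the make-up of the NCM wells differed: macrophage-like wells were 6.29 and 5.89% of the wells of KO1 and KO2, against 14.6 and 12.7% of those of WT1 and WT2, and wells of cluster 9, led by red cell genes, were 7.69 and 16.9%, against 0.289 and 0.427%. Endothelial-like wells overlapped, at 35.5 and 16.3%, against 8.67 and 20.5%. UMIs of the 6 erythroid markers, mostly haemoglobin genes, equalled 11.97 and 23.2% of the number of NCM UMIs outside mitochondrial and haemoglobin genes, against 1.30 and 4.01%. This is a ratio, since haemoglobin is left out of the divisor. Haemoglobin genes took 4.48 and 11.96% of all NCM UMIs in KO1 and KO2, against 1.19 and 3.42% in WT1 and WT2.

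**Figure D3:**
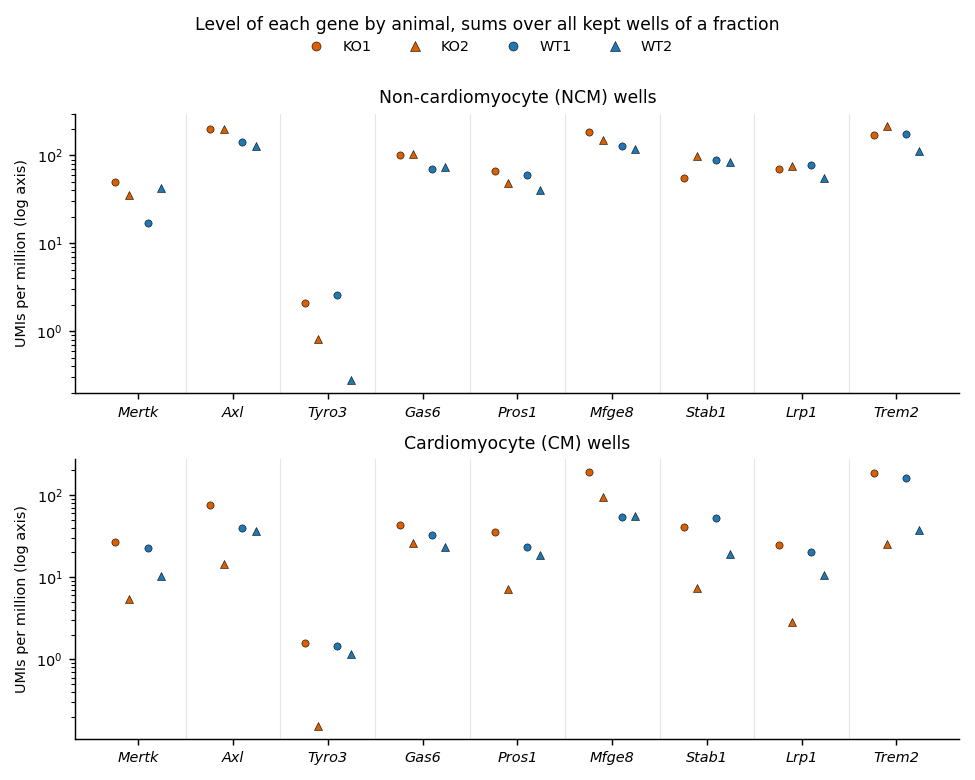
Level of each gene in all kept NCM wells (top) and CM wells (bottom) by animal, in UPM on a log axis, with KO points left of WT points. Axl, Gas6 and Mfge8 lie higher in both KO animals in NCM wells, and Mfge8 does so in CM wells (190.2 and 95.3 in KO, 53.5 and 56.2 in WT).

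In CM wells, Mfge8 was the one member whose groups did not overlap, with 190.2 and 95.3 UPM in KO1 and KO2, against 53.5 and 56.2 in WT1 and WT2. Both KO animals lay above both WT animals, as for 15.8% of the 14462 genes tested, and they also lay far apart from each other. The log2 difference was 1.21 ± 0.38 (SE), with edgeR unadjusted p = 0.0186 and adjusted p = 0.999. No gene passed the adjusted threshold (0%), 3.44% were under 0.05 before adjustment, and DESeq2 called 48, no member among them. The other 8 members overlapped. The difference of the KO minus WT effect between NCM and CM wells was -0.98 ± 0.43 for Mfge8 (edgeR adjusted p = 0.951), with no gene called there either (0%, with 4.95% under 0.05 before adjustment and 116 called by DESeq2).

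Cardiomyocyte-like CM wells, which make up most of this fraction, held part of this excess: Mfge8 had 146 and 96.0 UPM in KO1 and KO2, against 69.3 and 59.6 in WT1 and WT2. The groups did not overlap here, as for 20% of 13228 genes, and the log2 difference was 0.68 ± 0.36 (edgeR adjusted p = 0.974). No gene passed in these wells (0%, with 3.98% under 0.05 before adjustment and 40 called by DESeq2). Smooth muscle markers, 6 genes, moved with this value, at 0.1 and 0.0445% of UMIs in KO1 and KO2, against 0.0295 and 0.0261% in WT1 and WT2. Endothelial markers were at 0.379 and 0.121%, against 0.185 and 0.113%. A finer clustering (Leiden resolution 2.0) named 66 and 66 CM wells of KO1 and KO2 endothelial-like, against 23 and 22 of WT1 and WT2. The clustering used here (resolution 1.0) named only 1 CM well so, in WT2. Cardiomyocyte-like CM wells are therefore not taken as pure cardiomyocytes. The part of endothelial-like wells and of these markers in the Mfge8 value was not tested. In KO1, 8 pericyte-like CM wells gave 978 Mfge8 UMIs, against 1080 from its 206 cardiomyocyte-like wells, and KO2 had no pericyte-like CM well. Trem2 had 107 and 7.96 UPM in cardiomyocyte-like CM wells of KO1 and KO2, against 11.2 and 10.5 in WT1 and WT2. KO1 alone was high, and the groups overlapped (log2 difference 1.99 ± 0.95, edgeR adjusted p = 0.974). Gas6 also lay higher in both KO animals in cardiomyocyte-like CM wells, at 41.3 and 24.3, against 19.2 and 22.3 (log2 difference 0.41 ± 0.47, edgeR adjusted p = 0.974).

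In macrophage-like NCM wells, Mfge8 was the one member that was higher in both KO animals than in both WT animals. Mfge8 had 59.9 and 86.4 UPM in KO1 and KO2, against 26.5 and 13.1 in WT1 and WT2. Both KO animals lay above both WT animals. A UMI was found in 22 of 45 and 25 of 44 KO wells, against 56 of 101 and 57 of 89 WT wells, which were deeper. After thinning to 5000 UMIs the shares were 17.9 and 23.7% in KO1 and KO2, against 8.98 and 7.1% in WT1 and WT2. The log2 difference was 1.84 ± 0.70 (SE), with edgeR unadjusted p = 0.0383 and adjusted p = 0.519. Of the 12135 genes tested, 19.3% had both KO animals above both WT animals, none passed the adjusted threshold (0%), 9.41% were under 0.05 before adjustment and DESeq2 called 401, no member among them.

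Endothelial markers moved with this value in NCM wells: the 12 markers together took 0.347 and 0.134% of the UMIs of macrophage-like wells in KO1 and KO2, against 0.0365 and 0.0481% in WT1 and WT2, while the 14 macrophage markers held 1.62 and 1.81%, against 3.01 and 3.51%. Those of fibroblasts (0.162 and 0.262%, against 0.112 and 0.101%), pericyte markers (0.041 and 0.0195%, against 0.00511 and 0.0116%) and smooth muscle markers (0.0127 and 0.0143%, against 0.00686 and 0.00555%) were also higher in both KO animals. So were markers of cardiomyocytes (0.217 and 0.437%, against 0.0799 and 0.169%) and neutrophils (0.126 and 0.0372%, against 0.0326 and 0.0164%). UMIs of the 6 erythroid markers, mostly haemoglobin genes, equalled 3.23 and 12.6% of the number of UMIs outside mitochondrial and haemoglobin genes, against 0.0311 and 0.178%. The part of these markers in the value was not tested. In the macrophage-like NCM wells whose endothelial markers took under 0.1% of UMIs, Mfge8 had 43.0 and 101 UPM in KO1 and KO2 (12 and 19 wells), against 25.0 and 8.78 in WT1 and WT2 (86 and 75 wells). The groups did not overlap in these wells either, a choice made after seeing the data. The limit did not level the endothelial markers, which were still at 0.0531 and 0.0430% in KO1 and KO2, against 0.0224 and 0.0289% in WT1 and WT2. Their part in the Mfge8 value of these wells was not tested. The macrophage-like wells of the CM chips gave a second set of wells from the same animals. They are mixed by their markers, since cardiomyocyte markers took 1.17 and 4.94% of UMIs in KO1 and KO2, against 3.53 and 4.31% in WT1 and WT2, and macrophage markers 2.52 and 0.967%, against 2.54 and 1.98%. Mfge8 was also higher in both KO animals in cardiomyocyte-like CM wells, and the part of cardiomyocyte RNA was not tested. In these macrophage-like CM wells Mfge8 had 72.9 and 67.0 UPM in KO1 and KO2, against 11.3 and 28.3 in WT1 and WT2. Endothelial markers took 0.0409 and 0.0439% of UMIs in these KO wells, against 0.0672 and 0.0457% in the WT wells. Smooth muscle markers again were higher in KO, at 0.0178 and 0.0237%, against 0.00749 and 0.00648%, and their part was not tested. The log2 difference was 1.74 ± 0.81, with edgeR adjusted p = 1.00. Of 9600 genes, 15.6% had both KO animals above both WT animals, none passed (0%), 3.95% were under 0.05 before adjustment and DESeq2 called 51.

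Trem2, Stab1 and Mertk overlapped between genotypes. The log2 difference of Trem2 in macrophage-like NCM wells was 0.10 ± 0.35, that of Stab1 -0.22 ± 0.44 and that of Mertk 0.35 ± 0.82, with edgeR adjusted p = 0.955, 0.917 and 0.931. Lrp1 was lower in both KO animals, at 44.6 and 38.6 UPM in KO1 and KO2, against 50.3 and 50.5 in WT1 and WT2, as 21% of the genes tested were (log2 difference -0.39 ± 0.57, edgeR adjusted p = 0.878). Tyro3 did not pass the filter on low counts here.

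**Figure D4:**
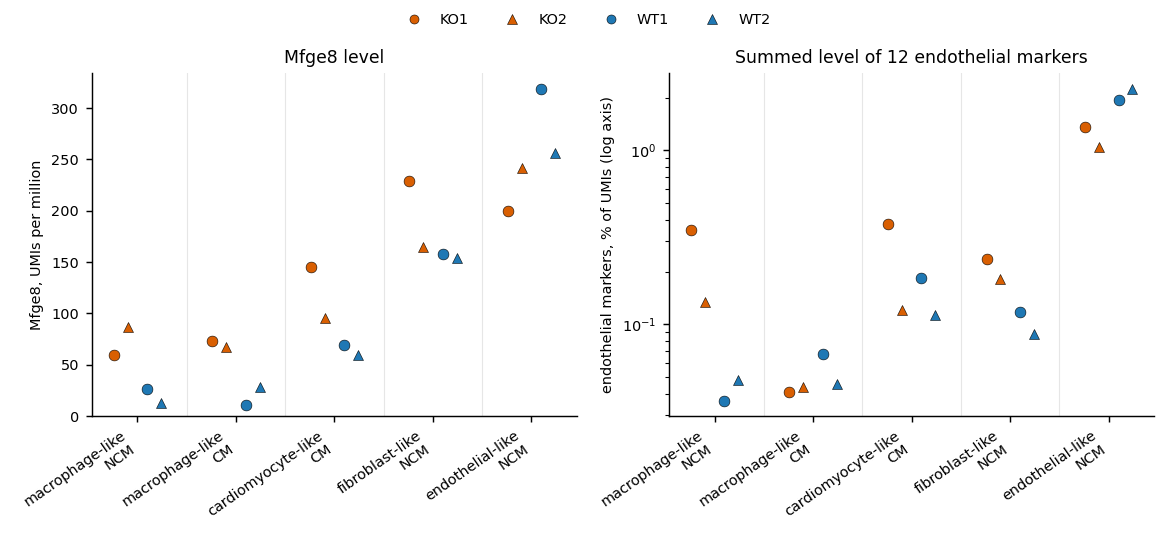
Left, Mfge8 level in UPM (linear axis) and right, the summed level of 12 endothelial markers as a percent of UMIs (log axis), in 5 sums of wells, with 1 point per animal and KO left of WT. Mfge8 is higher in both KO animals in macrophage-like wells of both fractions. Endothelial markers are higher in KO in the NCM ones (0.347 and 0.134% against 0.0365 and 0.0481%) and not in the CM ones. Smooth muscle markers, not drawn, were higher in both KO animals in the CM ones (0.0178 and 0.0237%, against 0.00749 and 0.00648%). The CM ones are also mixed with cardiomyocyte markers, and the part of any marker in the Mfge8 level was not tested.

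In fibroblast-like NCM wells, 7 of the 9 members were higher in both KO animals than in both WT animals, against 24.1% of the 14236 genes tested. Both counts are in UPM, while the log2 differences are on the TMM scale. The median log2 difference of all genes in these wells was 0.16 with library totals and 0.00 with TMM. Members whose animals lie close, such as Mfge8 and Tyro3, can therefore change order with the scale. Axl had 419 and 371 UPM in KO1 and KO2, against 261 and 259 in WT1 and WT2, with a log2 difference of 0.45 ± 0.22 (SE, edgeR adjusted p = 0.558). Lrp1 had 148 and 122, against 83.2 and 70.0 (0.66 ± 0.31, edgeR adjusted p = 0.536), and Gas6 had 105 and 102, against 75.5 and 37.5 (0.73 ± 0.43, edgeR adjusted p = 0.603). For Axl, Lrp1 and Gas6 no KO value overlapped a WT value.

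The other 4 fibroblast-like differences rested on fewer UMIs or on 1 animal. Mertk had 36.6 and 6.65 UPM in KO1 and KO2, against 3.97 and 3.31 in WT1 and WT2, and 95 of the 239 UMIs of KO1 came from 1 well. Trem2 had 29.9 and 34.3, against 25.0 and 11.6, Mfge8 had 229 and 165, against 158 and 154, and Tyro3 had 7.81 and 0.95, against 0.93 and 0.29. Tyro3 counts among the 7 only by the small distance between KO2 and WT1, and 43 of its 51 UMIs in KO1 came from 1 well. Without KO1 the log2 difference of Mfge8 was -0.05, against 0.18 with all animals. No member and no other gene passed edgeR's adjusted threshold (0%, with 10.1% under 0.05 before adjustment and 362 called by DESeq2). The median log2 difference of the 9 members was 0.67, beside 0.00 over all genes. In these wells endothelial markers were at 0.239 and 0.182% of UMIs in KO1 and KO2, against 0.117 and 0.0882% in WT1 and WT2, and pericyte markers at 0.0431 and 0.0508%, against 0.0147 and 0.0286%. Macrophage markers were at 0.14 and 0.19%, against 0.127 and 0.0943%, and fibroblast markers at 3.0 and 2.8%, against 3.17 and 2.91%. The part of these markers in the 7 values was not tested. The mix of the 2 fibroblast-like clusters also differed, with 67 and 62 wells of cluster 3 and 29 and 57 of cluster 6 in KO1 and KO2, against 88 and 101 of cluster 3 and 67 and 24 of cluster 6 in WT1 and WT2. Within cluster 3, Axl had 548 and 412, against 392 and 341, and within cluster 6 it had 242 and 344, against 170.3 and 160.1. No test was run within a cluster, and the share of all genes with KO above WT there was not counted. The part of the cluster mix in the 7 values was not tested.

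In endothelial-like NCM wells the direction of Mfge8 was the opposite. It had 199.7 and 241 UPM in KO1 and KO2, against 318 and 257 in WT1 and WT2, with a log2 difference of -0.58 ± 0.39 (SE, edgeR adjusted p = 0.717). Both KO animals lay below both WT animals, as for 14.7% of the 12203 genes tested. Axl (106 and 78.4, against 61.5 and 32.8), Lrp1 (38.5 and 54.3, against 16.1 and 26.6) and Trem2 (136 and 103, against 93.7 and 65.6) were higher in both KO animals, as were 26.2% of genes. Their log2 differences were 0.75 ± 0.64, 0.93 ± 0.86 and 0.36 ± 0.53, with edgeR adjusted p = 0.774, 0.795 and 0.89, and no gene passed (0%, with 8.65% under 0.05 before adjustment and 207 called by DESeq2). Endothelial markers took 1.36 and 1.05% of UMIs in these wells of KO1 and KO2, against 1.96 and 2.25% in WT1 and WT2. The share of the 12 fibroblast genes was 0.488 and 0.628%, against 0.352 and 0.267%; their part in these values was not tested.

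The difference of the KO minus WT effect between macrophage-like and endothelial-like NCM wells was 2.41 ± 0.69 on the log2 scale for Mfge8, with the animal as a block. This had an unadjusted p = 0.00664 and an adjusted p = 0.559 in edgeR, where 11 of 13484 genes (0.0816%) passed and 6.19% were under 0.05 before adjustment. DESeq2, run as the other tool, gave 2.58 with an adjusted p = 0.0344 and called 368 genes. Against fibroblast-like wells the difference for Mfge8 was 1.62 ± 0.74 (edgeR adjusted p = 0.959, with 0% of genes called, 5.11% under 0.05 before adjustment and 200 called by DESeq2). In edgeR no member passed any of the 3 tests of a difference between effects.

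**Figure D5:**
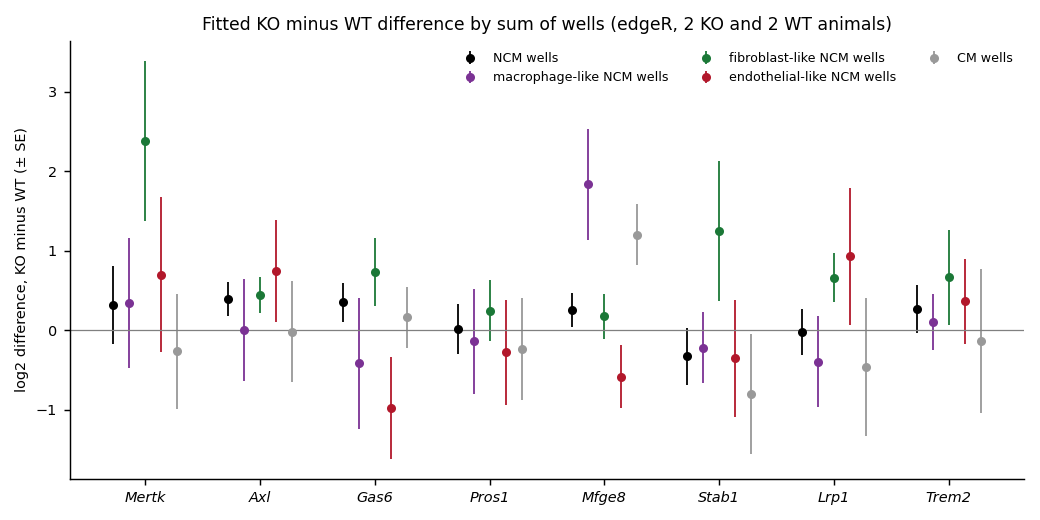
Fitted log2 difference, KO minus WT, with its standard error, for 8 members in NCM wells, in macrophage-like, fibroblast-like and endothelial-like NCM wells and in CM wells (2 KO and 2 WT animals, edgeR). Mfge8 lies at 1.84 in macrophage-like and -0.58 in endothelial-like wells, and the fibroblast-like values lie above 0 for every gene drawn.

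Neutrophil-like NCM wells were few in KO2 (37 and 20 wells in KO1 and KO2, against 72 and 38 in WT1 and WT2). There, 5 members were higher and 1 lower in both KO animals, against 23.9 and 13.8% of the 8347 genes tested, of which 1 gene, no member, passed (0.012%) and 8.25% were under 0.05 before adjustment. Mertk had 45.6 and 100.3 UPM in KO1 and KO2, against 3.26 and 2.52 in WT1 and WT2, but 103 of the 106 UMIs of KO2 came from 1 well (log2 difference 4.19 ± 1.64, edgeR adjusted p = 0.585, DESeq2 adjusted p = 0.0412). Axl (282 and 43.5, against 14.4 and 25.2), Mfge8 (179.9 and 207, against 82.4 and 33.4), Stab1 (42.3 and 143, against 28.2 and 7.25) and Trem2 (46.4 and 357, against 37.2 and 3.15) were the other 4, and Gas6 was lower (33.2 and 28.4, against 55.0 and 46.0). Neutrophil markers took 0.744 and 0.701% of UMIs in these KO wells, against 2.38 and 2.14% in the WT wells. Some markers of other cells were higher in both KO animals: endothelial at 0.642 and 0.337%, against 0.156 and 0.084%, and pericyte at 0.052 and 0.0744%, against 0.0151 and 0.0398%. So were erythroid markers, mostly haemoglobin genes, whose UMIs equalled 24.8 and 13.6% of the number outside mitochondrial and haemoglobin genes, against 0.569 and 0.119%. Macrophage markers (0.525 and 0.638%, against 0.660 and 0.603%) and fibroblast markers (0.576 and 0.982%, against 0.423 and 0.966%) overlapped. Cardiomyocyte and smooth muscle markers overlapped too. The part of any of these markers in the member values was not tested. In the mixed cardiomyocyte-like NCM wells, Axl alone was higher in both KO animals (177 and 235, against 77.2 and 100.2), as were 18.8% of 12287 genes. Its log2 difference was 1.18 ± 0.55 (edgeR adjusted p = 0.777), with 0% of genes passing, 6.64% under 0.05 before adjustment and 250 called by DESeq2. In macrophage-like CM wells Gas6 was higher in both KO animals (80.3 and 52.6, against 43.9 and 44.99), as were 15.6% of 9600 genes. Its log2 difference there was 0.53 ± 0.65 (edgeR adjusted p = 1.00).

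Of 60 other genes of the clearance pathway, grouped in 7 lists, 59 could be tested in NCM wells. Both KO animals lay above both WT animals in 23 and below them in 7, against 26.9 and 18.3% of all genes, and the median log2 difference was 0.23, beside -0.01 over all genes. The 3 largest KO excesses were of Itgb3, an integrin chain that binds Mfge8 (37.1 and 30.2 UPM, against 6.03 and 9.16; log2 difference 1.97 ± 0.43), the ATP channel Panx1 (33.6 and 61.8, against 21.0 and 15.2; 1.26 ± 0.44) and the sphingosine phosphate receptor S1pr1 (148 and 123, against 29.3 and 71.4; 1.25 ± 0.44). The 3 lowest were the Trem2 adaptor Tyrobp (722 and 811, against 1495 and 1312; -1.03 ± 0.20), the lipid carrier Apoe (7022 and 6433, against 8713 and 15055; -0.99 ± 0.28) and Sphk1, which makes sphingosine phosphate (16.5 and 11.5, against 20.3 and 17.7; -0.61 ± 0.41). The edgeR adjusted p-values of these 6 lay between 0.339 and 0.576; of the 59, 9 had an unadjusted p under 0.05 and 0 an adjusted one.

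By list, KO lay above WT in 6 of 11 adaptors, 5 of 13 lipid handling genes, 4 of 14 other engulfment receptors, 3 of 8 eat-me or dont-eat-me signals, 2 of 6 find-me genes, 2 of 4 anti-inflammatory genes and 1 of 3 shedding genes, and below it in 1, 2, 1, 1, 1, 0 and 1. Tyrobp and Apoe are macrophage genes, and the shares of macrophage-like wells are given above. The part of these shares in the 2 values was not tested, and Apoe was also lower within macrophage-like NCM wells (below). In macrophage-like NCM wells, 55 of the 60 could be tested, with 21 above and 11 below, against 19.3 and 21% of all genes, 11 at an unadjusted p under 0.05 in edgeR and 0 at an adjusted one. The scavenger receptor Marco (45.7 and 279, against 20.1 and 8.46; log2 difference 3.56 ± 1.08), the lipid sensor Pparg (33.0 and 88.3, against 3.84 and 8.34; 3.27 ± 0.96) and S1pr1 (144 and 64.0, against 19.2 and 34.5; 1.76 ± 0.65) had the 3 largest KO excesses. Apoe (21057 and 15389, against 22525 and 42816; -0.99 ± 0.34) and the retinoid receptor Rxra (22.0 and 16.3, against 38.7 and 27.9; -0.92 ± 0.72) were lower, as was the oxidised lipid receptor Olr1, at 0 and 2.38 in KO1 and KO2, against 16.7 and 29.9 in WT1 and WT2. Their edgeR adjusted p-values lay between 0.509 and 0.741. The endothelial marker values of these wells are given above, and S1pr1 is also a gene of endothelial cells. The part of endothelial RNA in these values was not tested.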

How the data were processed

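Hearts of 2 KO and 2 WT mice were measured on 4 chips. The deposited tables hold UMI counts per gene and well, and in 4315 of 4315 wells their sum equalled the pairs of gene and UMI in the deposited per-well reports, which also name the animal and fraction. Per the submitters' processing notes, the authors worked on mm10 with STAR 2.5.2b and with featureCounts of Subread 1.4.6-p1; no source used here gives the annotation release, the strand setting or how UMIs were collapsed. Spike-ins took 4.98e-05% of UMIs and were left out, as were 20 negative and 20 positive control wells. No column of per-sample values lacked a sample (0 columns). Well barcodes are addresses: 856 of 3017 occur on more than 1 chip.

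Kept wells were clustered without the 9 members, mitochondrial and haemoglobin genes (scanpy 1.11.5, 2000 variable genes, 30 components, 15 neighbours, Leiden resolution 1.0) and named from fixed markers. A cluster took a name with at least 3 markers among its 30 leading genes and no other class ahead among the first 10, first against the other wells of its chips and otherwise against all wells; the ending "-like" marks such rebuilt names. Scrublet marked 33 wells as doublets, which stayed in. Class levels are a description, since clusters come from the same wells.

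UMIs were summed per animal where every animal had at least 20 wells. KO and WT were compared with edgeR 4.0.16 (quasi-likelihood test, TMM, filterByExpr, Benjamini-Hochberg adjustment at 0.05 over all genes tested) in R 4.3.3; DESeq2 1.42.0 was an alternative. Differences of effects were fitted on 8 sums with the animal as a block. The edgeR script was tested on simulated counts. Shares thinned to 5000 UMIs are expected values over random draws of UMIs, and shallower wells were left out of them. P-values measure the spread between 2 animals per genotype, each genotype on 1 chip per fraction.

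The members, lists and tests were chosen with earlier results of these data known. Besides the members, the genes named are the 3 largest differences in each direction among pathway genes with at least 10 UPM whose groups do not overlap, and the 3 genes most like each member with at least 20 UPM. Genes leading a cluster and genes overlapping a member are named for description. Promoters are from RefSeq and all 9 members matched.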

Additional observations from a re-analysis of the deposited data

Results flagged for a closer look

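In 3 cases the KO animals lay on 1 side of the WT animals in one class of NCM wells and on the other side in another class. Either side is common over all genes tested: in macrophage-like wells KO lay above WT for 19.3% and below it for 21%. These shares were 26.2 and 14.7% in endothelial-like wells, and 24.1 and 18.9% in fibroblast-like wells. The share of genes on opposite sides in a pair of classes was not counted. Mfge8 was higher in both KO animals in macrophage-like wells and lower in both in endothelial-like wells, and the difference of the KO minus WT effect was 2.41 on the log2 scale (edgeR adjusted p = 0.559, DESeq2 adjusted p = 0.0344). Lrp1 was lower in both KO animals in macrophage-like wells and higher in both in fibroblast-like and endothelial-like wells, with differences of effect of -1.11 against fibroblast-like wells (SE 0.68, edgeR adjusted p = 0.966) and -1.34 against endothelial-like wells (SE 1.09, edgeR adjusted p = 0.928). None of these differences of effect passed in edgeR. Endothelial markers took 0.347 and 0.134% of UMIs in macrophage-like wells of KO1 and KO2, against 0.0365 and 0.0481% in WT1 and WT2. In endothelial-like wells they took 1.36 and 1.05%, against 1.96 and 2.25%. Their part in the Mfge8 difference was not tested.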

How the results depend on the processing

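The number of genes past adjusted p 0.05 depended on the tool and the filter, while no member passed in edgeR with all 4 animals under any setting. With DESeq2 the counts were 579 in NCM wells, 48 in CM wells, 250 in cardiomyocyte-like, 255 in neutrophil-like, 207 in endothelial-like, 362 in fibroblast-like and 401 in macrophage-like NCM wells, and 40 in cardiomyocyte-like and 51 in macrophage-like CM wells. For the differences of effects DESeq2 called 116 (NCM minus CM), 200 (macrophage-like minus fibroblast-like) and 368 genes (macrophage-like minus endothelial-like). With no filter on low counts edgeR called 226, 47, 90, 102, 141, 261, 280, 75 and 21 in the same order of 9 sums. With equal weight per well it called 5 in NCM wells, 0 in neutrophil-like and 2 in macrophage-like NCM wells. With library totals it called 19 genes for macrophage-like minus endothelial-like. The 1 neutrophil-like call became 0 with DESeq2 size factors, with library totals, with mitochondrial and haemoglobin genes kept and without doublets. With the replicate number as a block the counts were 17 in neutrophil-like NCM wells and 4 each in the macrophage-like and endothelial-like ones; the correlation of same-numbered deviations ran from -0.0361 to 0.58 over the sums, and 2 pairs do not establish a pairing.

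Leaving out 1 animal leaves 1 sample in an arm, assumed to vary like the other genotype. The counts then ran from 0 to 1 in NCM wells, 0 to 9 in cardiomyocyte-like, 0 to 39 in endothelial-like and 14 to 62 in neutrophil-like NCM wells, 0 to 574 in cardiomyocyte-like and 1 to 369 in macrophage-like CM wells (both highest without KO2, where the KO arm is 1 animal and Trem2 in cardiomyocyte-like CM wells, at 2.84, is 1 of the 574 calls among 13816 genes), and 0 to 5, 0 to 1 and 9 to 70 for the 3 differences of effects.

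A set of 33 results held the member differences whose animals lay apart, the Mfge8 differences of effects and the Lrp1 ones flagged above. Their 289 values under other settings held 1 reversal (Gas6 in NCM wells, -0.0185 with equal weight per well). Their 132 values without 1 animal held 1 (Mfge8 in fibroblast-like wells, from -0.046 without KO1 to 0.308 without KO2). Where results were picked because the animals lay apart, a kept sign was close to set by that choice. Of the 69 other results, which include the other differences of effects, 41 of 546 and 80 of 276 values changed sign. The contrast between the 33 and the 69 is thus no sign of firmness. Mfge8 in macrophage-like NCM wells ran from 1.33 to 2.36 over all settings. DESeq2 called Mertk in neutrophil-like wells at 4.28 (adjusted p = 0.0412) and the macrophage-like minus endothelial-like difference of Mfge8 at 2.58. The median share over animals of NCM wells with a UMI was followed in each gene's highest tested class, cardiomyocyte-like wells left out. It dropped on thinning. In macrophage-like wells it went from 35.4 to 16.3% for Mertk, from 65.2 to 32.7% for Stab1 and from 82.6 to 51.3% for Trem2. In fibroblast-like wells it went from 82.3 to 45.3% for Axl, from 2.97 to 0.656% for Tyro3 and from 79.6 to 30.9% for Lrp1. In endothelial-like wells it went from 37.1 to 16.8% for Gas6, from 22.1 to 11.6% for Pros1 and from 62.6 to 34.2% for Mfge8. The macrophage-like median of Stab1 was 152 UPM as a mean over wells and 161 at Leiden resolution 0.5, against 189, and that of Trem2 was 370.4 as a mean over wells, against 501. Wells under 30% mitochondrial UMIs left too few per animal in all sums but CM wells, and a limit of 20000 UMIs in neutrophil-like wells; these were not run. Depth limits Tyro3 most.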
